A study of Mus musculus with 36 samples.

Results

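The miR-181 family was followed in mouse kidneys during the first postnatal week, with and without deletion of Pkd1 or Pkd2. Its 7 members were taken by name from the 1915 mature miRNAs of the count table: mmu-miR-181a-5p, mmu-miR-181b-5p, mmu-miR-181c-5p and mmu-miR-181d-5p from the 5′ arms of the hairpins, and mmu-miR-181a-1-3p, mmu-miR-181a-2-3p and mmu-miR-181b-1-3p from 3′ arms. The prefix mmu, for mouse, is left out from here on. The remaining 3p arms of these hairpins, miR-181b-2-3p, miR-181c-3p and miR-181d-3p, were read as a related list. Kidneys of C57BL/6 mice were collected 1, 3 or 7 days after birth, called P1, P3 and P7. Mice homozygous for a floxed Pkd1 or Pkd2 gene (Pkd1 f/f, Pkd2 f/f) that also carried HoxB7-Cre are called KO, and those without Cre are called WT, so both genotypes carried the floxed alleles. There were n = 3 libraries in each of the 12 groups and 36 in all, and the labels do not state whether each library came from its own animal, so p-values measure the spread between libraries. HoxB7-Cre acts in the ureteric bud lineage that forms the collecting duct, whereas RNA was taken from whole kidney, in which most cells keep the gene.

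A miRNA is cut from a hairpin precursor, and usually the RNA of 1 arm is retained in Argonaute, where bases 2 to 8, the seed, pair with messenger RNAs and lower their output. The miR-181 family is known for setting the sensitivity of lymphocytes to antigen, and it is expressed in many other tissues. In mouse it comes from 6 hairpins in 3 pairs. The mature sequences are shown because the 4 abundant members share the seed and differ behind it, and because the 3p arms tell apart hairpins that give the same 5p RNA. They were taken from RefSeq (GRCm38.p6) and are written 5′ to 3′ with the seed in capitals.
miR-181a-5p: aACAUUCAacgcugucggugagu
miR-181c-5p: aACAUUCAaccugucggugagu
miR-181b-5p: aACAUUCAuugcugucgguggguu
miR-181d-5p: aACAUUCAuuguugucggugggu
miR-181a-1-3p: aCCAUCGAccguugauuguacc
miR-181a-2-3p: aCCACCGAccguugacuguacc
miR-181b-1-3p: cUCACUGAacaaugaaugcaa
miR-181c-3p: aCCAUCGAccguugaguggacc
miR-181b-2-3p: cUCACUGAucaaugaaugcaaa
miR-181d-3p: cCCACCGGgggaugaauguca
Among the 1623 miRNAs of the table with a sequence, the seed ACAUUCA was held by the 4 5p members alone. Counted from the 5′ end, miR-181b-5p differed from miR-181a-5p by A9U, C10U and A21G, and miR-181d-5p differed from miR-181b-5p by C12U alone. miR-181c-5p, of 22 bases, matched the first 10 and the last 12 bases of the 23-base miR-181a-5p. The 3p arms of the paired a hairpins differed by U5C and U16C, and the first of these lies in the seed. How the counting divided reads between such close sequences is not given in the sources used here, so small differences between miR-181b-5p and miR-181d-5p are uncertain.

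On GRCm38, Mir181a-1 (chr1:137966455-137966541) and Mir181b-1 (chr1:137966639-137966718) lie on the plus strand with 97 bases between them, in an exon of the long noncoding RNA A430106G13Rik. Mir181a-2 (chr2:38852735-38852810) and Mir181b-2 (chr2:38853830-38853918) also lie on the plus strand, 1019 bases apart, in an intron of Nr6a1, a nuclear receptor gene read in the opposite direction. Mir181d (chr8:84178716-84178787) and Mir181c (chr8:84178873-84178961) lie on the minus strand 85 bases apart, in an intron of Nanos3 on the same strand. miR-181a-5p and miR-181b-5p can therefore each come from chromosome 1 or 2, and their reads cannot be assigned to a locus. The table listed miR-181a-5p under both a hairpins with nearly the same total, the lower being 99.998% of the higher. For miR-181b-5p the lower row was 92.3% of the higher, and the higher row was used throughout.

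Libraries held 12569939 to 32663566 miRNA reads, with a median of 24008082. miR-10a-5p and miR-10b-5p took between 31.4% and 81.0% of a library, a spread that was also wide within groups (31.4% to 79.8% in Pkd1 KO at P3). Levels were therefore given as CPM, reads scaled to a common library size, after trimmed mean of M values (TMM) scaling within each model, and CPM values of the Pkd1 model are not on the same scale as those of the Pkd2 model. The 8 miRNAs of the kidney tubule and epithelium list, which includes the miR-192 and miR-200 groups, had at least 1 read in every library. They summed to 6200 to 25744 CPM in the Pkd1 model and to 10098 to 38626 CPM in the Pkd2 model. The 3 striated muscle miRNAs summed to 1146 CPM in replicate 1 of Pkd1 WT at P1. Their median was 34.3 CPM over the libraries of both models, each on the scale of its own model. miR-122-5p of liver reached 341 CPM in replicate 3 of Pkd2 WT at P1. The part of these muscle and liver miRNAs in the results was not tested, and the values without these 2 libraries are given where they change a call.

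The 7 members of the family together held between 1.94% and 8.75% of all reads (median 3.99% over libraries). miR-181a-5p was the fifth most abundant of all 1915 miRNAs by total reads and ranked between 3 and 7 in single libraries. It held 76.5% of the family reads, miR-181c-5p 12.8%, miR-181b-5p 6.23%, miR-181d-5p 2.84% and miR-181a-1-3p 1.62%.

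The order of the members was nearly the same in every library. miR-181a-5p exceeded miR-181c-5p in 36 of 36 libraries, by 4.57 to 9.26 times, and miR-181c-5p exceeded miR-181b-5p in 36 of 36, by 1.47 to 4.03 times. miR-181b-5p exceeded miR-181d-5p in 36 of 36, by 1.60 to 3.24 times. The step from miR-181d-5p to miR-181a-1-3p was the narrow one: miR-181d-5p was higher in 35 of 36 libraries, with a median ratio of 1.68, and was 0.931 times miR-181a-1-3p in replicate 3 of Pkd1 KO at P7. miR-181b-1-3p followed far below, with 49 to 1389 reads a library. These are comparisons of read counts of RNAs of similar length, with no adjustment for how well each sequence was captured.

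The 3p arms separated the paired hairpins. miR-181a-1-3p had 580215 reads in all and miR-181a-2-3p had 176, a ratio of 3297. miR-181a-2-3p had 0 reads in 3 libraries, at most 3 reads in 17, and no more than 13 in any, so its log2 fold changes rest on few reads. Its group totals ran from 5 reads in Pkd1 KO at P7 to 26 reads in Pkd1 KO at P1. miR-181b-1-3p had 15693 reads and miR-181b-2-3p had 1544, a ratio of 10.2. The 3p totals do not give the output of each locus, because the share of the 3p arm that is retained may differ between hairpins.

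**Figure D1:**
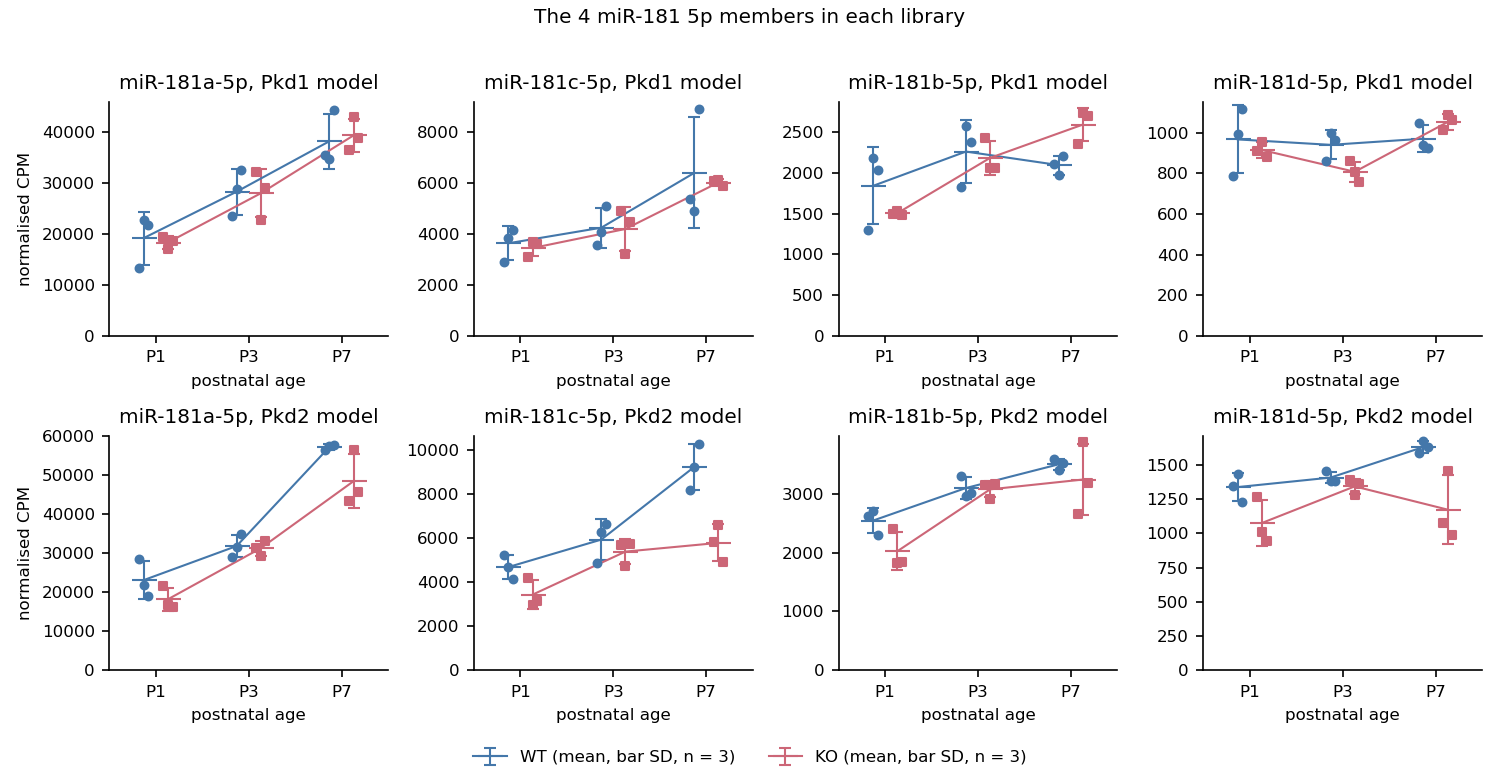
Level of the 4 5p members in each library, as TMM-normalised CPM (vertical axis, from 0) against postnatal age, with the Pkd1 model in the upper row and the Pkd2 model in the lower row. Circles are WT and squares KO libraries, and lines join group means with SD (n = 3). In Pkd1 WT libraries miR-181a-5p lay between 13236 and 22655 CPM at P1 and between 34698 and 44434 CPM at P7. In Pkd2 WT libraries it lay between 18929 and 28373 CPM at P1 and between 56381 and 57659 CPM at P7.

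The comparison of WT ages describes how the family changed as the kidney matured. miR-181a-5p and miR-181c-5p rose from P1 to P7 in both models, miR-181a-1-3p and miR-181b-5p passed the test in the Pkd2 model alone, and miR-181d-5p passed in neither. The difference between the models in these age effects was not tested. A miRNA is called here when its Benjamini-Hochberg adjusted p over all miRNAs tested, from edgeR's quasi-likelihood test, is under 0.05. The members called higher numbered 2 of 7 in the Pkd1 model, where 10.3% of the 706 miRNAs tested were called higher and 21.5% were called in either direction. In the Pkd2 model 4 of the 6 members tested were called higher, against 11.4% of 746 miRNAs called higher and 28.3% in either direction. No member was called lower. The members tested had a median log2 fold change of 0.52 in Pkd1 and of 0.61 in Pkd2 kidneys, beside -0.03 and -0.06 over all miRNAs tested. WT libraries of P1 and P7 did not overlap for 4 of 7 members in Pkd1 kidneys, where 33.1% of all miRNAs did not, and for 6 of 6 in Pkd2 kidneys, where 49.9% did not.

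In Pkd1 WT kidneys, miR-181a-5p stood at 13236, 22655 and 21713 CPM at P1, at 23571 to 32525 CPM at P3, and at 35536, 34698 and 44434 CPM at P7. The P1 and P7 libraries did not overlap, and replicate 1 at P1, the library with the high muscle markers, was the lowest. The log2 fold change was 0.99 ± 0.20, where ± after a log2 fold change is the SE throughout, a rise of 1.99 times (adjusted p = 0.0042). Without that library it was 0.78 (adjusted p = 0.0157), and with only these 6 libraries in the fit it was 0.98 and did not pass (adjusted p = 0.0873).

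In Pkd2 WT kidneys, miR-181a-5p stood at 28373, 21842 and 18929 CPM at P1 and at 56381, 57503 and 57659 CPM at P7. The P7 libraries lay close together, with an SD of 698 CPM on a mean of 57181 CPM, and all were above those of P1. The log2 fold change was 1.31 ± 0.17 (SE), a rise of 2.48 times (adjusted p = 8.64e-05). From P3, at 29028 to 34780 CPM, to P7 the log2 fold change was 0.85 ± 0.17 (adjusted p = 0.0122), the only member called among 4.16% of 746 miRNAs called. From P1 to P3 it was 0.46 ± 0.17 (adjusted p = 0.263). Without replicate 2 of Pkd2 WT at P7 the P3 to P7 call was lost, at 0.87 (adjusted p = 0.0573), and 6 of all miRNAs were called.

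miR-181c-5p, which differs from miR-181a-5p only behind the seed, stood at 2895, 3840 and 4177 CPM at P1 and at 5391, 4904 and 8901 CPM at P7 in Pkd1 WT kidneys. The groups did not overlap, and replicate 3 at P7 was well above the other 2. The log2 fold change was 0.81 ± 0.23 (adjusted p = 0.0234), and it was 0.46 (adjusted p = 0.113) without replicate 3 at P7. The call was also lost without replicate 1 at P1, at 0.67 (adjusted p = 0.082), and with only these 6 libraries in the fit, at 0.81 (adjusted p = 0.137). In Pkd2 WT kidneys miR-181c-5p went from 5235, 4686 and 4121 CPM at P1 to 8186, 9223 and 10269 CPM at P7. That rise of 0.98 ± 0.18 on the log2 scale (adjusted p = 0.000986) passed with each library left out in turn.

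miR-181b-5p stood at 2626, 2721 and 2304 CPM at P1 and at 3593, 3414 and 3526 CPM at P7 in Pkd2 WT kidneys, with no overlap. Its rise was smaller, 0.46 ± 0.16 on the log2 scale (adjusted p = 0.035), and the call was lost with any of the 6 libraries left out (0.39 to 0.51, adjusted p = 0.0523 to 0.141), with no filter on low counts (adjusted p = 0.17) and with the replicate number as a block (adjusted p = 0.0505). In Pkd1 WT kidneys its log2 fold change was 0.19 ± 0.18 (adjusted p = 0.484) and the groups overlapped. miR-181d-5p, the neighbour of miR-181c-5p in the Nanos3 intron, had a log2 fold change of 0.29 ± 0.16 in the Pkd2 model (adjusted p = 0.189) and of 0.01 ± 0.14 in the Pkd1 model (adjusted p = 0.985). In Pkd1 WT kidneys it stood at 788 to 1119 CPM at P1 and at 924 to 1048 CPM at P7.

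miR-181a-1-3p, the other arm of the chromosome 1 a hairpin, went from 463, 491 and 495 CPM to 876, 806 and 784 CPM in Pkd2 WT kidneys, a rise of 0.77 ± 0.16 on the log2 scale (adjusted p = 0.00225). In Pkd1 WT kidneys the libraries also did not overlap, at 484 to 642 CPM and 715 to 832 CPM, and the log2 fold change of 0.52 ± 0.20 did not pass (adjusted p = 0.0743). miR-181b-1-3p, the arm of the next hairpin on the same transcript, had a log2 fold change of 0.87 ± 0.35 in the Pkd1 model (adjusted p = 0.0817) and of 0.45 ± 0.26 in the Pkd2 model (adjusted p = 0.205).

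Of the related 3p arms, miR-181c-3p, miR-181b-2-3p and miR-181d-3p, 0 of 3 were called between P1 and P7 in either model, with log2 fold changes between -0.56 and 0.25. miR-181b-2-3p fell from P3 to P7 in Pkd1 WT kidneys, by 1.01 on the log2 scale (SE 0.31, adjusted p = 0.0406), from 1.05, 1.60 and 1.97 CPM to 0.62, 0.71 and 0.91 CPM in ascending order. It rests on few reads, 5 to 105 in a library, and the call was lost with any of 5 libraries left out (all but replicate 2 at P3) and with DESeq2 (adjusted p = 0.0611). In that comparison 14.4% of 706 miRNAs were called. No member was called from P3 to P7 in the Pkd1 model. The log2 fold changes there were 0.43 (miR-181a-5p), 0.45 (miR-181a-1-3p), 0.01 (miR-181a-2-3p), -0.11 (miR-181b-5p), 0.05 (miR-181b-1-3p), 0.59 (miR-181c-5p) and 0.05 (miR-181d-5p). From P3 to P7 in the Pkd2 model they were 0.33 (miR-181a-1-3p), 0.18 (miR-181b-5p), -0.08 (miR-181b-1-3p), 0.64 (miR-181c-5p, adjusted p = 0.0598) and 0.21 (miR-181d-5p) beside the called miR-181a-5p.

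No member was called from P1 to P3 in either model (18.8% of 706 and 0.268% of 746 miRNAs called). In Pkd1 WT kidneys the log2 fold changes were 0.56 (miR-181a-5p), 0.07 (miR-181a-1-3p), -0.02 (miR-181a-2-3p), 0.30 (miR-181b-5p), 0.82 (miR-181b-1-3p), 0.22 (miR-181c-5p) and -0.04 (miR-181d-5p). miR-181a-5p missed the threshold (adjusted p = 0.0652), and it was called without replicate 2 at P1, at 0.70 (adjusted p = 0.0466). The log2 fold changes in Pkd2 WT kidneys were 0.46 (miR-181a-5p), 0.44 (miR-181a-1-3p), 0.28 (miR-181b-5p), 0.54 (miR-181b-1-3p), 0.34 (miR-181c-5p) and 0.07 (miR-181d-5p). Of the related arms, miR-181d-3p had a log2 fold change of 0.90 ± 0.37 from P1 to P3 in Pkd1 WT kidneys (adjusted p = 0.105). Without replicate 1 at P1, the library with the high muscle markers, it was called, at 1.55 (adjusted p = 0.0345), on levels of 0.27 to 1.05 CPM.

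**Figure D2:**
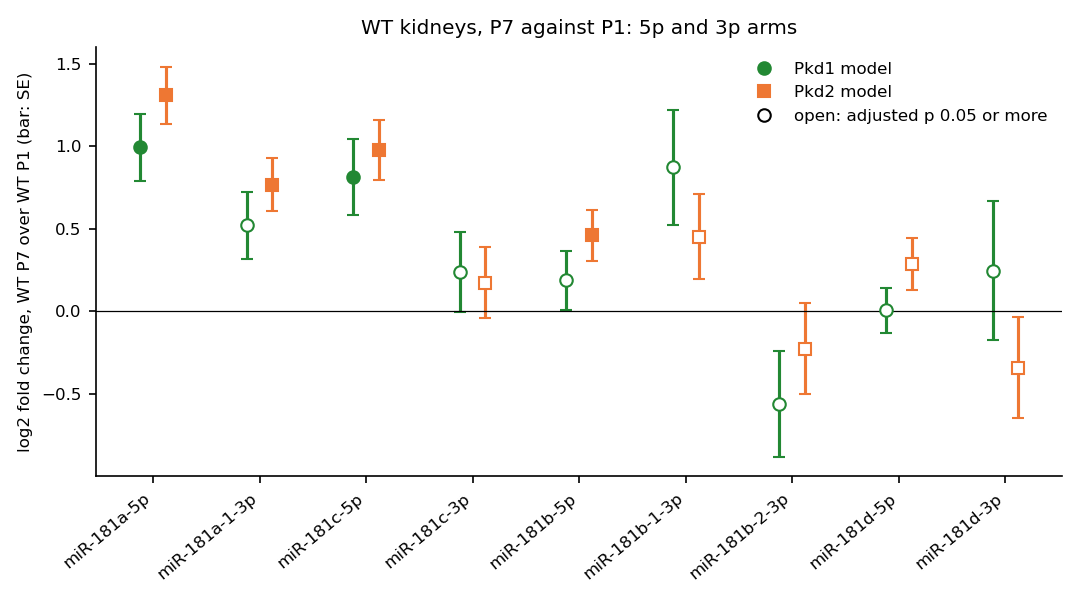
Log2 fold change from P1 to P7 in WT kidneys (vertical axis, bars are SE) in the Pkd1 model (circles) and the Pkd2 model (squares). Each 5p arm is shown with its 3p arms other than miR-181a-2-3p. Filled symbols passed adjusted p under 0.05. The 5p arms of the a and c hairpins lie between 0.81 and 1.31, and the c-3p arm lies at 0.24 and 0.17.

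These changes are relative to the other miRNAs. With library totals alone, without TMM factors, the median of all miRNAs tested from P1 to P7 moved to -0.68 in Pkd1 kidneys and -0.78 in Pkd2 kidneys, and no member passed. Relative to that median, miR-181a-5p changed by 1.13 and 1.39 on the log2 scale and miR-181c-5p by 1.01 and 1.07, while miR-181d-5p changed by 0.04 and 0.35. The tubule and epithelium miRNAs moved in the same comparison, with 5 of 8 called higher in Pkd1 kidneys and 7 of 8 in Pkd2 kidneys. The leukocyte list had 4 of 5 and 1 of 5 called higher, and its sum went from 133 to 174 CPM at P1 to 270 to 385 CPM at P7 in the Pkd1 model and from 348 to 449 CPM to 432 to 539 CPM, which overlap, in the Pkd2 model. The endothelial list had 1 of 2 called higher in each model, and the erythroid list 1 of 2 in Pkd1 and 0 of 2 in Pkd2 kidneys. The liver miRNA was called lower in Pkd2 kidneys. The striated muscle list had 3 of 3 called lower in Pkd1 kidneys, where it summed to 1146 CPM in replicate 1 and to 39.8 CPM or less in the other two libraries of P1, and to 28.5 to 45.1 CPM at P7. In whole kidney, more cells of a type and more RNA per cell cannot be told apart, and the part of these lists in the result was not tested.

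Shares within the family do not depend on the scaling, because each is taken inside a library. They were compared over both models with an exact two-sided permutation test of WT libraries within each model, of 400 arrangements, whose smallest possible p is 0.005. In WT kidneys from P1 to P7 the share of miR-181a-5p rose and those of miR-181b-5p and miR-181d-5p fell. The shares sum to a fixed whole, so a rise of one member lowers the others.

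miR-181a-5p made up 73.0% ± 2.0 (SD, n = 3) of the family reads in Pkd1 WT kidneys at P1 and 79.0% ± 1.3 at P7. In Pkd2 WT kidneys it made up 71.5% ± 2.7 and 79.0% ± 0.9. Every P7 library, at 77.6% or more, was above every P1 library, at 74.7% or less, and the mean difference was 6.76 percentage points (exact permutation p = 0.005, adjusted p = 0.0112 over 9 measures).

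miR-181b-5p fell from 7.02% ± 0.16 to 4.37% ± 0.45 in Pkd1 kidneys and from 8.04% ± 1.00 to 4.85% ± 0.20 in Pkd2 kidneys, with no overlap. The mean difference was -2.92 percentage points (exact permutation p = 0.005, adjusted p = 0.0112). miR-181d-5p fell from 3.76% ± 0.46 to 2.04% ± 0.38 and from 4.23% ± 0.60 to 2.25% ± 0.05, also with no overlap (-1.85 percentage points, exact permutation p = 0.005, adjusted p = 0.0112). The share of miR-181c-5p, the neighbour of miR-181d-5p on the same strand, differed by -1.53 percentage points (exact permutation p = 0.115, adjusted p = 0.148). Pkd1 WT replicate 3 at P7 held 15.5% of its family reads as miR-181c-5p, above all other P7 libraries, and without it the difference was -2.18 percentage points (adjusted p = 0.036).

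**Figure D3:**
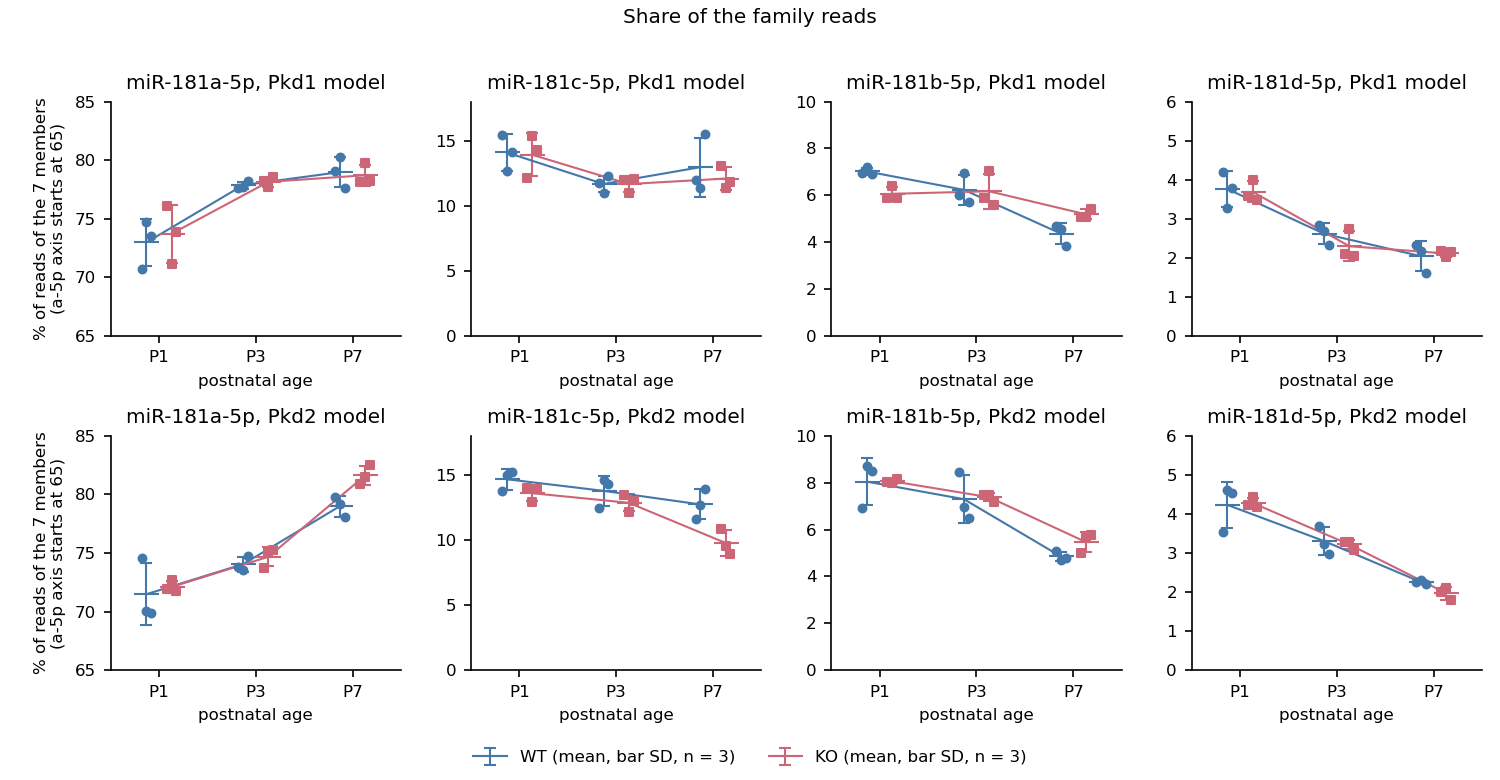
Share of the reads of the 7 members held by each 5p member (vertical axis, %, starting at 65 for miR-181a-5p and at 0 for the others) against postnatal age, for the Pkd1 model (upper row) and the Pkd2 model (lower row). Circles are WT and squares KO libraries, with means and SD (n = 3). The a-5p share lies at 69.9% to 74.7% in WT libraries at P1 and 77.6% to 80.2% at P7, and the mean b-5p share goes from 7.02% to 4.37% in Pkd1 WT and from 8.04% to 4.85% in Pkd2 WT kidneys.

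With age miR-181a-1-3p, miR-181c-3p and miR-181b-2-3p became scarcer against miR-181a-5p, miR-181c-5p and miR-181b-5p, in that order. The c hairpin kept the most 3p RNA: miR-181c-3p had 74.1 ± 15.3 reads (SD, n = 3) per 1000 reads of miR-181c-5p in Pkd1 WT kidneys at P1 and 50.8 ± 10.4 at P7. In Pkd2 WT kidneys it had 111.8 ± 10.3 and 63.3 ± 3.0. The groups did not overlap in either model, and the mean log2 ratio differed by -0.68 (exact permutation p = 0.005, adjusted p = 0.0112).

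miR-181a-1-3p had 29.1 ± 7.1 reads per 1000 reads of miR-181a-5p in Pkd1 WT kidneys at P1 and 20.4 ± 3.1 at P7. In Pkd2 WT kidneys it had 21.6 ± 5.0 and 14.4 ± 1.0 (mean log2 difference -0.53, exact permutation p = 0.01, adjusted p = 0.018). Its denominator also holds any reads from the a-2 hairpin. The ratio of miR-181b-2-3p to miR-181b-5p differed by -0.72 on the log2 scale (exact permutation p = 0.02, adjusted p = 0.03), from 0.668 ± 0.382 and 0.770 ± 0.182 reads per 1000 to 0.355 ± 0.052 and 0.469 ± 0.145. That call was lost with any of 5 libraries left out (adjusted p = 0.0525 to 0.075): replicates 1 and 2 of Pkd1 WT at P7, replicates 2 and 3 of Pkd2 WT at P1 and replicate 1 of Pkd2 WT at P7. The P1 and P7 libraries overlapped in this ratio in both models. Because miR-181b-5p comes from both b hairpins, its ratios to miR-181b-2-3p and to miR-181b-1-3p are not those of a single hairpin.

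The b-1 and d hairpins did not pass. miR-181b-1-3p had 4.90 ± 2.60 reads per 1000 reads of miR-181b-5p at P1 and 7.19 ± 0.22 at P7 in Pkd1 WT kidneys, and 5.84 ± 0.29 and 5.81 ± 1.01 in Pkd2 WT kidneys (mean log2 difference 0.33, exact permutation p = 0.275, adjusted p = 0.309). The d hairpin differed by 0.50 in Pkd1 kidneys and by -0.60 in Pkd2 kidneys (exact permutation p = 0.855). Between the models, 0 of 9 measures differed in their age effect after adjustment.

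The level of miR-181c-3p moved against the share of miR-10 reads, with Pearson's r of -0.68 over the 36 libraries, whereas miR-181c-5p had an r of 0.19. For miR-181b-2-3p r was -0.60 and for miR-181a-1-3p it was 0.44. The libraries fall into groups of age and genotype and share their scaling, so these are descriptions. With the miR-10 share regressed out, the same number of measures, 6 of 9, passed from P1 to P7.

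**Figure D4:**
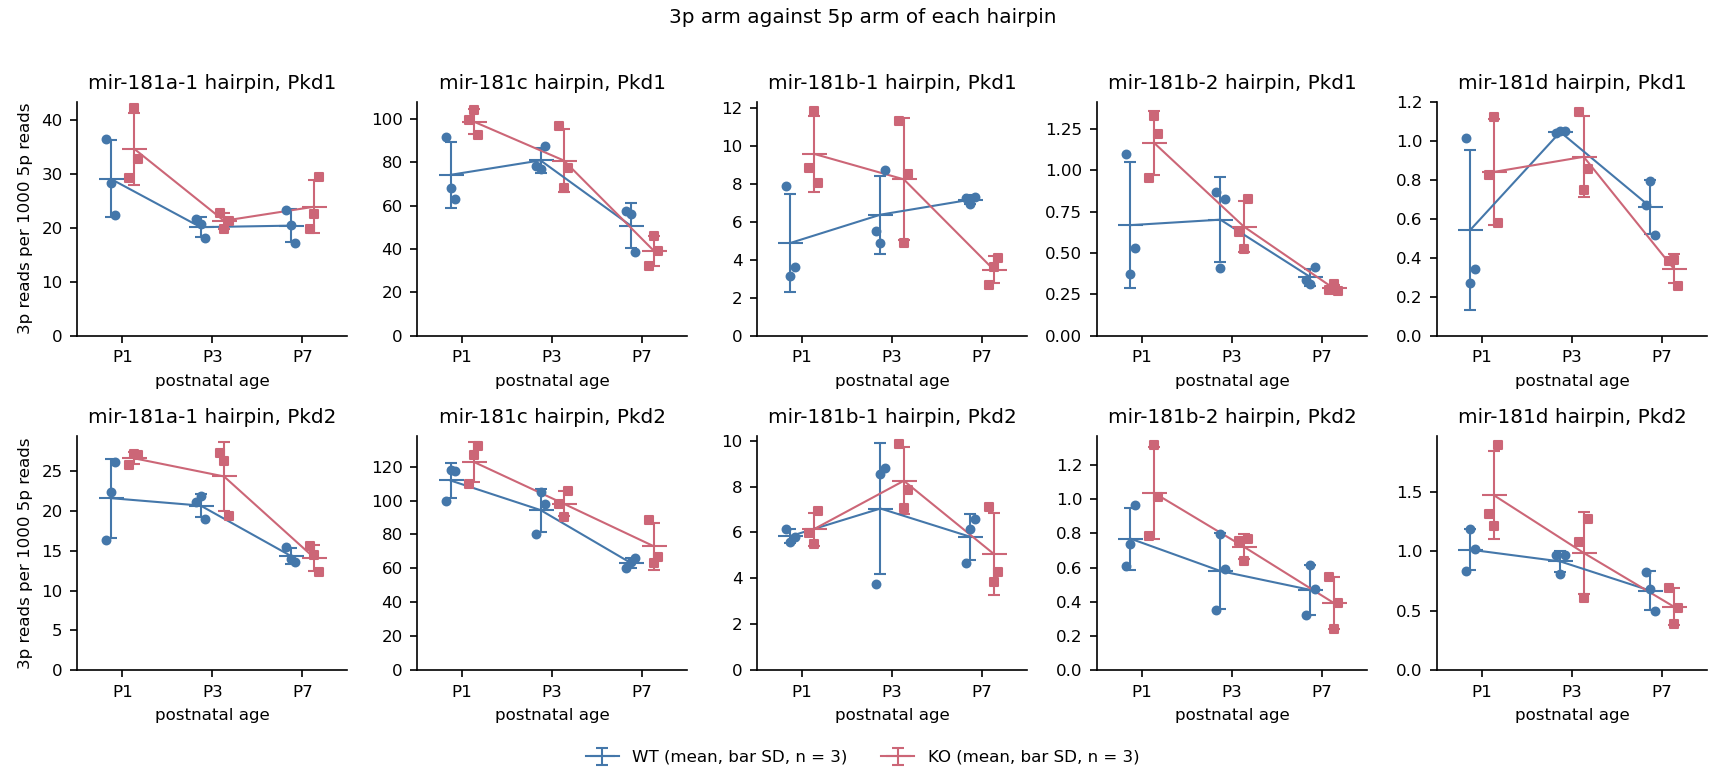
Reads of the 3p arm per 1000 reads of the 5p arm (vertical axis, from 0) for 5 hairpins against postnatal age, with the Pkd1 model in the upper row and the Pkd2 model in the lower row. Circles are WT and squares KO libraries, with means and SD (n = 3). The c hairpin falls from 111.8 to 63.3 in the means of Pkd2 WT kidneys between P1 and P7.

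The comparison of KO with WT asks whether loss of Pkd1 or Pkd2 in the collecting duct changed the family. Of the members, 0 of 7 were called in the Pkd1 model at each of P1, P3 and P7, where 0%, 0% and 0.425% of 706 miRNAs were called by edgeR. At an unadjusted p under 0.05 there were 1, 0 and 0 of 7 members, beside 8.36%, 9.07% and 10.2% of all miRNAs. In the Pkd2 model 0 of 6 were called at P1 and at P3, where 0% of 746 were called, with 2 and 0 of 6 members at an unadjusted p under 0.05 beside 5.5% and 1.47% of all miRNAs. With DESeq2 the members called were also 0 in each of these 5 comparisons. Over all miRNAs DESeq2 called 8 of 706 in the Pkd1 model at P1, and its numbers for the rest of these 5 are not given here. At P7 in the Pkd2 model 1 of 6 members, miR-181c-5p, was called lower, against 3.62% of 746 miRNAs called lower and 12.6% in either direction. At an unadjusted p under 0.05 there were 2 of 6, beside 29% of all miRNAs.

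miR-181c-5p stood at 8186, 9223 and 10269 CPM in Pkd2 WT and at 5813, 6599 and 4923 CPM in Pkd2 KO kidneys at P7. All 3 KO libraries were below all WT libraries. It fell by 0.68 on the log2 scale (SE 0.18, 95% interval -1.03 to -0.32, adjusted p = 0.0223), to 0.626 times the WT level. The call was lost without KO replicate 3 (adjusted p = 0.119), WT replicate 2 (0.0742) or WT replicate 3 (0.0782). It was also lost when only these 6 libraries were fitted (0.0733). In that order the log2 fold change was -0.59, -0.69, -0.64 and -0.63. Over all miRNAs 4, 11, 11 and 57 were called in these fits, against 94 with all libraries of the model. In the Pkd1 model at P7 miR-181c-5p stood at 5391, 4904 and 8901 CPM in WT and at 6090, 6106 and 5872 CPM in KO kidneys, which overlapped (log2 fold change -0.09 ± 0.23, adjusted p = 0.963).

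Its neighbour miR-181d-5p stood at 1589, 1675 and 1631 CPM in Pkd2 WT and at 1076, 1459 and 985 CPM in Pkd2 KO kidneys at P7. The groups did not overlap, and the log2 fold change of -0.48 ± 0.16 missed the threshold (adjusted p = 0.0571). It passed with DESeq2, with relative log expression factors, with a covariate for the share of miR-10 reads and without KO replicate 2 (adjusted p = 0.00609). In the Pkd1 model it was 0.12 ± 0.14 (adjusted p = 0.893).

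miR-181a-5p stood at 56381, 57503 and 57659 CPM in Pkd2 WT and at 43323, 56298 and 45583 CPM in Pkd2 KO kidneys at P7. The highest KO library lay just under the lowest WT library, and the log2 fold change was -0.24 ± 0.17 (95% interval -0.58 to 0.09, adjusted p = 0.395). In the Pkd1 model it was 0.04 ± 0.20 (95% interval -0.35 to 0.44, adjusted p = 0.984). miR-181b-5p differed by -0.11 ± 0.15 in the Pkd2 model and by 0.31 ± 0.18 in the Pkd1 model, with adjusted p = 0.688 and 0.623, although the Pkd1 libraries did not overlap, at 1976 to 2206 CPM in WT and 2356 to 2730 CPM in KO.

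The 3p members did not pass at P7 either. miR-181a-1-3p had log2 fold changes of 0.29 ± 0.20 in Pkd1 kidneys and -0.26 ± 0.16 in Pkd2 kidneys (adjusted p = 0.711 and 0.299). miR-181b-1-3p stood at 15.3, 13.7 and 16.2 CPM in Pkd1 WT and at 6.39, 9.95 and 11.0 CPM in Pkd1 KO kidneys. The groups did not overlap, and the log2 fold change of -0.72 ± 0.35 did not pass (adjusted p = 0.51). At P1 the order was the other way, with 10.3, 6.90 and 7.46 CPM in Pkd1 WT and up to 18.2 CPM in Pkd1 KO, again without overlap (log2 fold change 0.81 ± 0.35, adjusted p = 0.548). Groups that do not overlap were common among all miRNAs in these comparisons, 16.3% at P7 and 19.8% at P1 in Pkd1 kidneys and 25.2% at P7 in Pkd2 kidneys. At P7 2 of 7 members in Pkd1 kidneys and 3 of 6 in Pkd2 kidneys did not overlap.

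At P1 and P3 no member passed the test. In the Pkd1 model the 6 members other than miR-181a-2-3p had log2 fold changes between -0.29 and 0.81 at P1 and between -0.22 and 0.35 at P3. In the Pkd2 model they lay between -0.45 and 0.00 at P1 and between -0.14 and 0.24 at P3. miR-181a-2-3p had a log2 fold change of 1.09 at P1 in the Pkd1 model, from 26 reads in all in KO and 8 in WT. At P1 miR-181c-5p stood at 5235, 4686 and 4121 CPM in Pkd2 WT and at 4177, 2958 and 3145 CPM in Pkd2 KO kidneys. The highest KO library lay just above the lowest WT library, and the log2 fold change was -0.45 ± 0.18 (adjusted p = 0.886). At P3 the members' log2 fold changes of KO over WT in the Pkd1 model were -0.02 (miR-181a-5p), 0.09 (miR-181a-1-3p), 0.43 (miR-181a-2-3p), -0.05 (miR-181b-5p), 0.35 (miR-181b-1-3p), -0.02 (miR-181c-5p) and -0.22 (miR-181d-5p). miR-181d-5p stood at 860.5 to 998 CPM in WT and at 759 to 860.2 CPM in KO (adjusted p = 0.681). In the Pkd2 model at P3 the log2 fold changes were -0.03 (miR-181a-5p), 0.21 (miR-181a-1-3p), -0.01 (miR-181b-5p), 0.24 (miR-181b-1-3p), -0.14 (miR-181c-5p) and -0.07 (miR-181d-5p).

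Of the related 3p arms 0 of 3 were called in any of the 6 comparisons of KO with WT. At P7 in the Pkd2 model miR-181c-3p differed by -0.48 ± 0.22 (adjusted p = 0.151; a fit that included the share of miR-10 reads called it, at -0.39, adjusted p = 0.0499) and miR-181d-3p by -0.79 ± 0.34 (adjusted p = 0.122).

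Over all miRNAs tested the median log2 fold change of KO over WT was 0.01 in Pkd1 kidneys and 0.02 in Pkd2 kidneys at P7, beside medians of 0.04 over 7 and -0.31 over 6 members. In Pkd2 kidneys at P7 the endothelial list summed to 19100 to 28444 CPM in WT and 12910 to 19345 CPM in KO, with 0 of 2 called, and the tubule list, with 2 of 8 called higher and 3 of 8 lower, summed to 25545 to 38626 CPM in WT and 15061 to 22936 CPM in KO. The 2 erythroid miRNAs summed to 753 to 1024 CPM in WT and 1659 to 2829 CPM in KO, with 0 of 2 called, and the striated muscle list summed to 20.8 to 23.3 CPM in WT and 32.5 to 130 CPM in KO, with 0 of 3 called. Their part in the fall of miR-181c-5p was not tested.

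**Figure D5:**
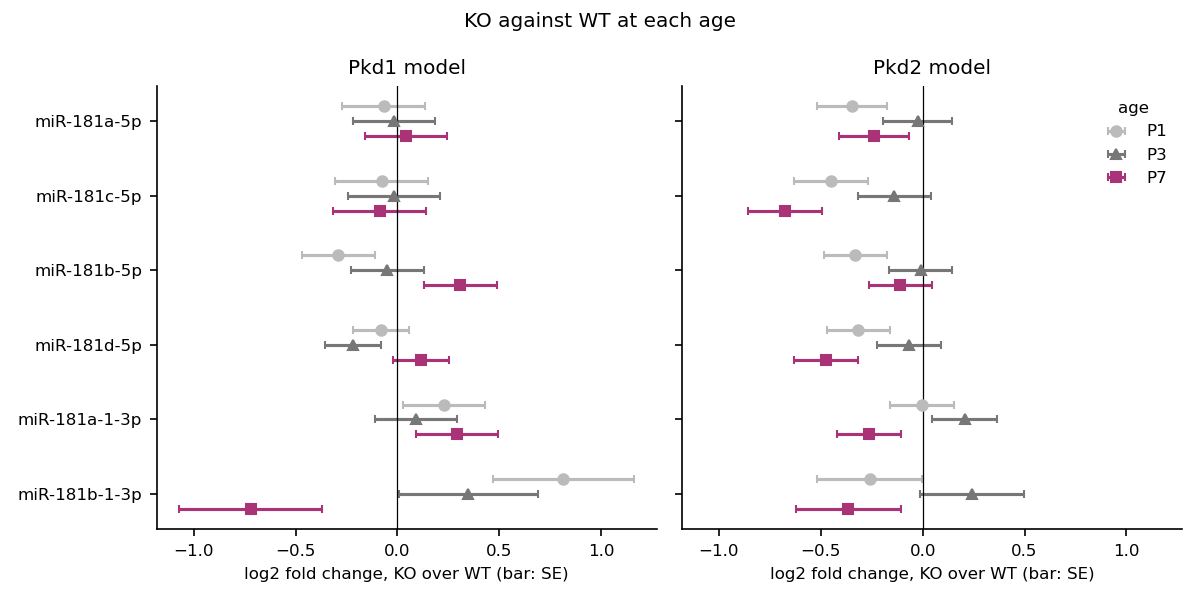
Log2 fold change of KO over WT (horizontal axis, bars are SE) for the 6 members with enough reads, at P1 (circles), P3 (triangles) and P7 (squares), in the Pkd1 model (left) and the Pkd2 model (right). In the Pkd2 model all 6 lie below 0 at P7, from -0.68 to -0.11, and only miR-181c-5p passed the test. In the Pkd1 model they lie on both sides of 0, from -0.72 to 0.31.

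The KO effects were not shown to differ between ages or between models. When the KO effect of P7 was set against that of P1 with an interaction term, 0 of 7 members were called in Pkd1 and 0 of 6 in Pkd2 kidneys, against 0.142% of 706 and 0.536% of 746 miRNAs. At an unadjusted p under 0.05 there were 2 and 0 members, beside 12% and 16.9% of all miRNAs. The largest difference was that of miR-181b-1-3p in the Pkd1 model, -1.53 ± 0.49 on the log2 scale (adjusted p = 0.366). When the KO effect of the Pkd1 model was set against that of the Pkd2 model, 0 of 7 members were called at P1, P3 and P7, against 0%, 0% and 0.387% of 775 miRNAs. By edgeR's unadjusted p under 0.05 there were 1, 0 and 2 members, beside 6.32%, 5.03% and 12% of all miRNAs. DESeq2 also called 0 members in these 5 tests of a difference, and its numbers over all miRNAs are not given here. miR-181d-5p at P7 differed by 0.60 ± 0.20 (adjusted p = 0.328), and it was called without replicate 2 of Pkd2 KO at P7, at 0.78 (adjusted p = 0.0363).

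Because the 4 5p members share their seed, their levels were also summed. The sum was 25647 ± 6441 CPM (SD, n = 3) at P1, 35758 ± 5606 CPM at P3 and 47688 ± 7641 CPM at P7 in Pkd1 WT kidneys, and 24196 ± 899, 35187 ± 5802 and 49040 ± 3525 CPM in Pkd1 KO kidneys. Each KO mean lay within 1 SD of the WT mean of its age. In Pkd2 WT kidneys the sum was 31618 ± 5559, 42216 ± 3569 and 71550 ± 1684 CPM, and in Pkd2 KO kidneys 24658 ± 4075, 41033 ± 2575 and 58604 ± 8397 CPM. At P7 the Pkd2 KO libraries ran from 52880 to 68244 CPM, below the WT libraries at 69748 CPM or more. The sum is mostly miR-181a-5p and was not tested by itself.

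Shares and arm ratios at P7 also showed no measure, 0 of 9, past an adjusted p of 0.05 between KO and WT. The nearest was the share of miR-181b-5p, which was 4.37% ± 0.45 in WT and 5.19% ± 0.21 in KO in Pkd1 kidneys and 4.85% ± 0.20 and 5.46% ± 0.43 in Pkd2 kidneys (mean difference 0.72 percentage points, exact permutation p = 0.01, adjusted p = 0.09). miR-181b-1-3p had 7.19 ± 0.22 reads per 1000 reads of miR-181b-5p in Pkd1 WT and 3.48 ± 0.71 in Pkd1 KO, with no overlap. In the Pkd2 model the values were 5.81 ± 1.01 and 5.06 ± 1.78 with overlap, and over both models the mean log2 difference was -0.65 (exact permutation p = 0.025, adjusted p = 0.105). miR-181b-1-3p was also set against miR-181a-1-3p, the 3p arm of the adjacent hairpin. It had 18.4 to 21.2 reads per 1000 in Pkd1 WT and 8.89 to 10.2 in Pkd1 KO kidneys at P7. In Pkd2 kidneys at P7 the libraries overlapped, at 19.2 to 29.7 in WT and 18.2 to 28.0 in KO. At P1 in Pkd1 kidneys they also overlapped, with KO the higher in the mean, at 10.7 to 21.2 in WT and 19.7 to 25.4 in KO. This comparison was chosen after the values were seen and was not tested.

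The miRNAs whose levels ran most nearly with the 5p members were found among 148 miRNAs outside the family with a mean of at least 100 CPM, by Spearman's rho over the 36 libraries on a single TMM scale. For miR-181a-5p these were miR-378d (0.78), miR-21a-5p (0.78) and miR-27b-3p (0.78). For miR-181c-5p they were miR-27b-3p (0.87), miR-107-3p (0.86) and miR-192-5p (0.85), the last of which is also on the tubule list. For miR-181b-5p they were miR-222-3p (0.75), miR-322-5p (0.72) and miR-191-5p (0.70), and for miR-181d-5p miR-107-3p (0.80), miR-30a-5p (0.76) and miR-378c (0.73). Within the family miR-181a-5p ran closest with miR-181c-5p (rho 0.91), although they come from different chromosomes, and with miR-181b-5p (0.84). Libraries of different ages and models enter these values together and share the scaling, so they are descriptions without a test.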

How the data were processed

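Total RNA of whole kidneys was sequenced as small RNA libraries. The authors removed adaptors and counted reads with miRDeep2 on mm10 and miRBase, and they deposited raw counts as whole numbers per mature miRNA and hairpin. The submitters' processing notes also name CASAVA 1.8.2 and HTSeq. A miRNA under several hairpins was represented by its row of highest total. The members and lists were chosen with earlier results of these data known. miRNAs reaching 10 counts in 3 or more libraries were tested with edgeR 4.0.16 (R 4.3.3) after TMM normalization, with the quasi-likelihood F-test and Benjamini-Hochberg adjustment. The 18 libraries of a model were fitted together, and all 36 for differences between models. SE is the log2 fold change over the square root of F, and 95% intervals are 1.96 SE wide on each side. That multiplier is the one of a normal distribution, so the intervals are narrower than the F-test would give. Log2 ratios of a 3p to a 5p arm had 0.5 added to each count, and reads per 1000 and shares had nothing added. A count of 3 reads is the floor of a library, for counting error only. The fits were tested on simulated data. Members were reported in every comparison, by value, within a range or in a count of calls, and likeness followed a rule of 3 miRNAs for each 5p member. The alternatives were library totals, relative log expression factors, DESeq2 1.42.0, no filter, fewer libraries, a replicate block, the miR-10 share as a covariate, the row with the lowest total and each library left out. For ratios, the last but one and regressing out the miR-10 share were chosen after seeing the data.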

Additional observations from a re-analysis of the deposited data

How the results depend on the processing

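Of 734 alternatives for log2 fold changes, 659 kept direction and side of the threshold, as did 270 of 288 for ratios and shares. The cause was not tested where they did not. The log2 fold changes followed were those of KO against WT at P7 and of WT P7 over P1, for the members other than miR-181a-2-3p. In other comparisons these members were followed only at an unadjusted p under 0.05 by edgeR. The related 3p arms were followed on that condition in every comparison. With library totals alone 0 members were called in WT P7 over P1 in either model, beside 136 (Pkd1) and 222 (Pkd2) of all miRNAs. For WT P7 over P3 the members called were 2 (Pkd1) and 0 (Pkd2), beside 276 and 14 of all miRNAs. In Pkd2 KO at P7 they were 0, beside 7. The 2 calls in Pkd1 were of members that fell, in a comparison where the median of all miRNAs with totals was -1.27. Some of the log2 fold changes followed changed sign with totals. For Pkd1 KO at P7 this was miR-181a-5p (-0.065). For Pkd1 WT P7 over P3 they were miR-181a-5p (-0.78), miR-181a-1-3p (-0.80) and miR-181c-5p (-0.56), and the other members were not followed there. For Pkd1 WT P7 over P1 they were miR-181a-1-3p (-0.12), miR-181b-5p (-0.39) and miR-181d-5p (-0.64). For Pkd2 WT P7 over P1 they were miR-181b-5p (-0.26), miR-181b-1-3p (-0.23) and miR-181d-5p (-0.43). With only the compared libraries, 0 members were called in Pkd1 WT P7 over P1, beside 53 of all miRNAs, and 0 in Pkd2 KO at P7, beside 57. With no filter 1 member was called in Pkd1 WT P7 over P1, beside 112 of all miRNAs. A covariate for miR-10 gave 3 in Pkd1 WT P7 over P3 and 4 in Pkd1 WT P7 over P1. It gave 2 in Pkd2 KO at P7 and 2 in Pkd2 WT P7 over P3. Over all miRNAs 154, 238, 168 and 125 were then called, against 102, 152, 94 and 31 without the covariate. DESeq2 and relative log expression factors gave 2 in both of the last comparisons. Over all miRNAs DESeq2 called 157 and 78 there, and the relative log expression factors 101 and 38. miR-181d-5p in Pkd1 WT P7 over P1 was -0.052 with both of these, -0.063 with no filter, -0.017 with the lowest row and -0.0098 with the compared libraries alone.

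With single libraries left out, members called ranged from 0 to 1 in Pkd1 WT P3 over P1 (1 without P1 replicate 2), from 1 to 2 in Pkd1 WT P7 over P1, from 0 to 2 in Pkd2 KO at P7, from 0 to 1 in Pkd2 WT P7 over P3 and from 0 to 1 in the model difference at P7. Over all miRNAs, 128 were called in Pkd1 WT P3 over P1 without P1 replicate 2. In Pkd1 WT P7 over P1, 102 were called without P1 replicate 1 and 72 without P7 replicate 3, the fits with 1 member called. In Pkd2 WT P7 over P3, 6 were called without P7 replicate 2, and in the model difference at P7, 7 without Pkd2 KO replicate 2. In Pkd2 KO at P7, 142 were called without KO replicate 2. There 4, 11 and 11 were called without KO replicate 3, WT replicate 2 and WT replicate 3. Among the log2 fold changes followed, some changed sign. In Pkd1 KO at P7 the ranges were -0.024 to 0.12 (miR-181a-5p) and -0.25 to 0.18 (miR-181c-5p). In Pkd1 WT P7 over P1 they were -0.011 to 0.33 (miR-181b-5p) and -0.12 to 0.12 (miR-181d-5p). In Pkd2 KO at P7 the range was -0.30 to 0.012 (miR-181b-5p). For shares and ratios of KO against WT at P7, 1 of 9 passed with the miR-10 share regressed out, 1 with the lowest row, and 0 to 3 with a library left out (2 without Pkd1 WT replicate 3, 3 without Pkd2 KO replicate 1). The log2 3p/5p ratio of the d hairpin from P1 to P7 was 0.0054 with 5 counts added and -0.21 to 0.21 with a library left out.

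Libraries with the same replicate number did not deviate together (correlations of -0.49 to 0.51), so the numbers were not taken as pairs. With the replicate block, miR-181b-5p was no longer called in Pkd2 WT P7 over P1 (adjusted p = 0.0505). miR-181b-2-3p was no longer called in Pkd1 WT P7 over P3 (adjusted p = 0.0538). The block changed no other call.

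Depth limits miR-181a-2-3p, with 0 to 13 reads in a library, miR-181b-2-3p and miR-181d-3p. For the 5p members the spread between 3 libraries sets the limit: the SE of a KO effect at P7 had a median of 0.19 in the Pkd1 and 0.16 in the Pkd2 model on the log2 scale. The controls were littermates per the study's methods, but which libraries share a litter is not given in the sources used here, nor are sex and batch, and their part was not tested.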
